A study of Mus musculus with 27 samples.

Results

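The 8 genes described here, Hmgcs1, Sqle, Insig1, Srebf2, Fdft1, Idi1, Lss and Cyp51, belong to cholesterol synthesis and its control by the transcription factor SREBP2. They were taken by gene name from the count tables of both experiments, and all 8 were found among 54532 annotated genes. Cells build cholesterol from acetyl-CoA through mevalonate, isoprenoid units, squalene and lanosterol. SREBP2 is held in the endoplasmic reticulum with its escort SCAP by INSIG proteins when sterols are plentiful, and is carried to the Golgi and cleaved to its active form when they run low, after which it raises transcription of most enzymes of the pathway. Lymphocytes are known to raise this pathway when they are activated to grow, since dividing cells need membrane sterols.

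The samples were B cells from the spleen of wild type C57BL6 mice, cultured for 3 h. In experiment 1 the cells were left unstimulated (NS), given lipopolysaccharide (LPS, a T-independent stimulus that acts through TLR4) or given IL-4+anti-CD40 (which mimics T cell help), and each stimulus was also combined with 1 μM disulfiram (DSF), with 4 libraries in each of the 5 groups. The authors describe the B cells with DSF as pre-treated with it. DSF is a drug for alcohol dependence that inhibits aldehyde dehydrogenase. Experiment 2 had 1 library for each of the same 5 conditions and 1 for each stimulus with 1 μM ibrutinib, an inhibitor of the kinase BTK, giving 7 libraries. Groups without DSF or ibrutinib, the unstimulated one included, are marked as given the vehicle DMSO. The labels do not say whether libraries with the same number came from one mouse, so p-values measure only the spread between these libraries.

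Libraries held 17804851 to 23632992 counts in experiment 1 and 16049295 to 24619776 in experiment 2, and all 6 B cell markers examined (among them Cd79a, Ms4a1 and Pax5) had counts in every group. Their summed level was 5310 to 8330 CPM (counts scaled to a library of fixed size) in NS, 4360 to 4460 with LPS, 3010 to 3190 with LPS and DSF, 3900 to 4340 with IL-4+anti-CD40 and 3160 to 3350 with IL-4+anti-CD40 and DSF. The summed level of 6 myeloid markers was 522 to 645 CPM in NS, 140 to 162 with LPS and 146 to 155 with LPS and DSF. It was 153 to 178 with IL-4+anti-CD40 and 206 to 266 with IL-4+anti-CD40 and DSF. Each of the 6 had counts in every group. The summed level of 6 plasma cell markers (Sdc1, Xbp1, Jchain, Prdm1, Tnfrsf17 and Irf4) was 588 to 814 CPM in NS, 1820 to 1850 with LPS, 2160 to 2340 after DSF was added to LPS, 1380 to 1460 with IL-4+anti-CD40 and 1600 to 1660 after DSF was added to that. This sum cannot tell more plasma cells from more RNA of these genes per B cell. The 4 NS libraries stood apart from each other as 2 pairs. Over log2 values of genes averaging 50 counts or more in experiment 1, libraries 1 and 2 correlated at r = 0.996 and libraries 3 and 4 at 0.994. Between the pairs the values were 0.940 to 0.941, and within any other group at least 0.979. Of 11465 genes averaging 50 counts or more in NS, 1234 (10.8%) differed 2-fold or more between the pairs, and 6 of the 8 genes described were among them. NS libraries 1 and 2 held less B cell marker RNA (5360 and 5310 CPM against 8330 and 8260) and less erythroid marker RNA (3.23 and 2.01 CPM against 19.8 and 20.6) than libraries 3 and 4. They held more neutrophil marker RNA (43.2 and 41.8 CPM against 10.6 and 15.2) and more T cell marker RNA (13.1 and 14.0 CPM against 5.81 and 7.57).

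The enzymes among the 8 genes follow the order of the pathway. Hmgcs1 makes HMG-CoA, the precursor of mevalonate, and lies at chr13:119690379-119708260 on the plus strand of mm10. Idi1 (chr13:8885501-8892451, plus strand) interconverts the isoprenoid units isopentenyl and dimethylallyl diphosphate, and Fdft1 (chr14:63145150-63179578, minus strand) joins farnesyl diphosphate to squalene, the first step that serves sterols alone. Sqle (chr15:59315077-59331192, plus strand) oxidises squalene, Lss (chr10:76531588-76557138, plus strand) closes the ring system to lanosterol, and Cyp51 (chr5:4081145-4104746, minus strand) demethylates lanosterol. Srebf2 (chr15:82147181-82205379, plus strand) encodes SREBP2 itself, and Insig1 (chr5:28071363-28078662, plus strand) encodes an INSIG protein that is also a target of SREBP2. Fdft1 overlaps Ctsb and Cyp51 overlaps Akap9, each on the opposite strand, and the strand setting of the counting was not given in the sources used here, so reads of these neighbours cannot be told apart where the genes overlap.

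The sequence before the start of 4 of the genes is shown because Hmgcs1 and Srebf2 were the members whose promoter window held the core of the sterol regulatory element, the DNA site of SREBPs, while Insig1 and Lss were the members farthest apart in their response to DSF under LPS. Each runs 5′ to 3′ on the plus strand of GRCm38.p6, from RefSeq, and stops at the base before the gene's start in RefSeq or in the count tables, whichever comes first. Capitals mark, on either strand, TCACNCCA, which is the core of the sterol regulatory element. They also mark the box bound by the factor NF-Y, spelled CCAAT. The GC box bound by the factor SP1, which is spelled GGGCGG, and the palindromic E-box of basic helix-loop-helix factors, spelled CACGTG, are marked too.
Hmgcs1, chr13:119690101-119690350: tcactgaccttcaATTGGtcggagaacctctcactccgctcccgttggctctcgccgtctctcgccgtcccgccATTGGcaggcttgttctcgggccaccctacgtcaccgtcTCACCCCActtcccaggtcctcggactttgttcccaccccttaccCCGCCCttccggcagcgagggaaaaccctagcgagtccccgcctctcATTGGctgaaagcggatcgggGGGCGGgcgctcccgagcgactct
Srebf2, chr15:82147019-82147180: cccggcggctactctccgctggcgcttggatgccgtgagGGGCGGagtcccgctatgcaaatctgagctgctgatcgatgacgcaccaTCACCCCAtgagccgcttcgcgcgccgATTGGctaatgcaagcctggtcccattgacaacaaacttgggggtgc
Insig1, chr5:28071162-28071362: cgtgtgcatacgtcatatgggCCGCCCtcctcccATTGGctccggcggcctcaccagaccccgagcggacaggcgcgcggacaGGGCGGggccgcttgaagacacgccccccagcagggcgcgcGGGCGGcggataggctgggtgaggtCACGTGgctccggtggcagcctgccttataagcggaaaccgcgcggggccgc
Lss, chr10:76531355-76531587: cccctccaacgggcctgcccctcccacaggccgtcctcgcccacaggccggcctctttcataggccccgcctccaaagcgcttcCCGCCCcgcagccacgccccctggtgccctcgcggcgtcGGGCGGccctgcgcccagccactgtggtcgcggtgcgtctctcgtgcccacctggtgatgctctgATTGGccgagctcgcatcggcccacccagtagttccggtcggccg
In the full windows of 300 bases (250 before and 50 after the RefSeq start), found for 6 of the 8 genes, TCACNCCA stood 137 bases before the start of Hmgcs1 and 162 bases before that of Srebf2, in 2 of 6 windows against 4.36% of 32851 promoters. The NF-Y box was present in 6 of 6 windows (37.4% of all promoters), the GC box in 6 of 6 (35.7%) and the E-box in Insig1 alone, 101 bases before its start (7.15%). No match in these windows overlapped another. A match of letters is a description of the window and not a measurement of binding.

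By FPKM (fragments scaled by gene length and by library size), Srebf2 was the highest of the 8 in unstimulated cells and Lss the lowest in every group. The gene length of Lss, 10787 bases, is the longest of the 8 and lowers its FPKM. By mean CPM, which ignores length, Lss was also lowest in NS (25.4 against 26.8 for Idi1), where their ranges overlapped. It was lowest as well under LPS, at 68.0 against 81.55 for Fdft1, the next gene up. Once DSF was present, Lss had 32.4 CPM against 80.4 for Fdft1 under LPS. Under IL-4+anti-CD40 those 2 values were 89.0 and 131.7. Only in cells given IL-4+anti-CD40 alone did the last place rest on length, since Lss (181.8) lay above Fdft1 (145.4) by CPM. In NS the FPKM of Srebf2 was 62.7 ± 3.57 (SD, n = 4) and that of Lss 2.34 ± 0.763. The other 6 lay between 7.22 (Fdft1) and 19.9 (Insig1) in NS, and neighbours from Insig1 down to Fdft1 overlapped in their ranges over libraries. With LPS the order was Srebf2 (78.5 ± 3.35), Insig1 (74.5 ± 1.77), Hmgcs1 (66.7 ± 1.78), Cyp51 (51.1 ± 1.64), Idi1 (34.6 ± 0.469), Sqle (30.2 ± 0.805), Fdft1 (18.9 ± 1.15) and Lss (6.17 ± 0.220), and only Srebf2 and Insig1 overlapped. With IL-4+anti-CD40 Hmgcs1 stood first at 134.7 ± 6.72 FPKM, followed by Insig1 (118.6 ± 0.982), Srebf2 (106.2 ± 5.07), Cyp51 (88.2 ± 6.60), Idi1 (64.1 ± 3.38), Sqle (54.2 ± 2.37), Fdft1 (34.8 ± 1.38) and Lss (17.0 ± 1.07), and no neighbours in that order overlapped. With DSF, Insig1 moved to the first place under both stimuli, at 107.5 ± 3.56 FPKM with LPS, where its range met that of Srebf2 (100.9 ± 2.99), and at 124.4 ± 2.14 with IL-4+anti-CD40, where its range met that of Hmgcs1 (119.2 ± 4.86).

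**Figure D1:**
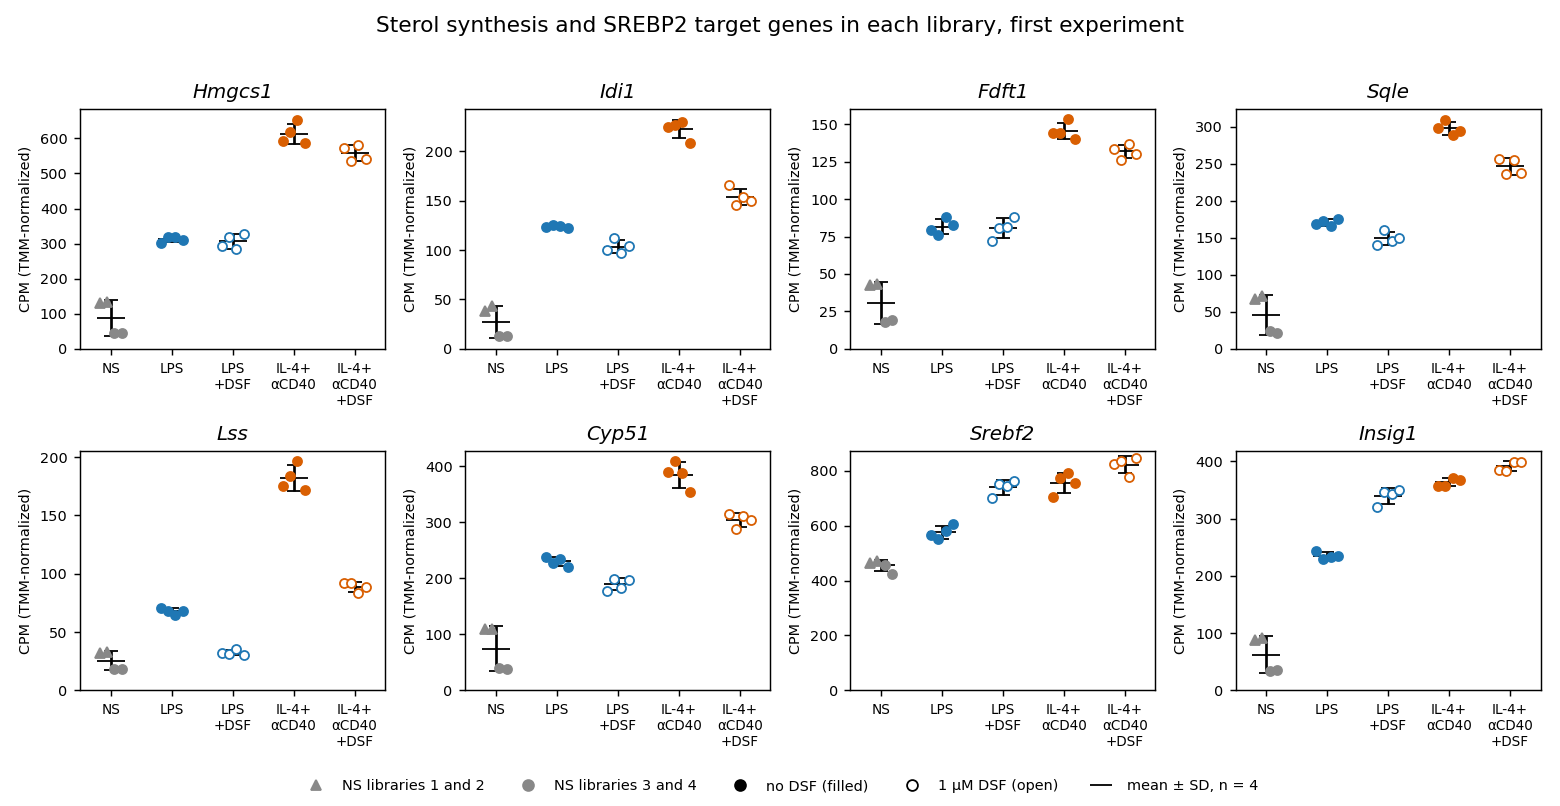
Level of each gene in CPM (TMM-normalized, linear axis from 0) in the 20 libraries of experiment 1. Each point is 1 library, open points had 1 μM DSF, triangles are NS libraries 1 and 2, and black bars give the mean ± SD of 4 libraries. All 8 genes lay higher with either stimulus than in NS, Lss lay lower with DSF under both stimuli (68.0 to 32.4 CPM with LPS, 181.8 to 89.0 with IL-4+anti-CD40), and Insig1 lay higher with DSF under LPS (235.2 to 339.8 CPM).

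All 8 genes rose within 3 h of LPS, by 1.27-fold (Srebf2) to 4.62-fold (Idi1), against 29.6% of 14477 genes tested that rose (edgeR's quasi-likelihood test, Benjamini-Hochberg adjusted p under 0.05). Idi1 had 38.5, 43.1, 13.0 and 12.7 CPM in NS libraries 1 to 4 and 123.1, 125.8, 124.2 and 122.1 CPM with LPS. All 4 LPS libraries lay above all NS libraries, with a log2 fold change of 2.21 (SE 0.396, edgeR adjusted p = 0.00123). Hmgcs1 had 130.4, 132.8, 44.8 and 44.6 CPM in NS and 302, 319, 319 and 309.6 CPM with LPS, a log2 fold change of 1.83 (SE 0.374, edgeR adjusted p = 0.00251). Srebf2, the regulator, moved least: it had 466, 473, 458 and 425 CPM in NS and 564, 551, 581 and 608 CPM with LPS, a log2 fold change of 0.34 (SE 0.0623, edgeR adjusted p = 0.00136). The ranges over libraries of LPS and NS did not overlap for any of the 8 genes, which was counted for these genes only and not over all genes. The log2 fold changes of the other 5 were 1.93 (Insig1), 1.89 (Sqle), 1.63 (Cyp51), 1.42 (Lss) and 1.41 (Fdft1), with edgeR adjusted p from 0.00029 (Lss) to 0.00339 (Cyp51). The median log2 fold change was 1.73 over the 8 genes and −0.046 over all genes tested.

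The size of the rise depended on which NS libraries it was set against. Between NS libraries 1 and 2 and NS libraries 3 and 4 the mean CPM differed 3.17-fold for Idi1, 3.02-fold for Sqle, 2.94-fold for Hmgcs1, 2.78-fold for Cyp51, 2.65-fold for Insig1, 2.27-fold for Fdft1 and 1.76-fold for Lss, with libraries 1 and 2 the higher. Srebf2 differed 1.06-fold. Against libraries 1 and 2 alone the log2 fold change with LPS ran from 0.30 (Srebf2) to 1.61 (Idi1), and against libraries 3 and 4 alone from 0.41 (Srebf2) to 3.29 (Idi1), and all 8 genes passed the test in both settings. The marker levels given above differed between the pairs and between NS and the stimulated groups, and their part in these values was not tested. In bulk RNA, fewer cells of a type and less RNA per cell cannot be told apart. With total counts as the scaling, Srebf2 gave a log2 fold change of 0.11 with an adjusted p of 0.187.

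IL-4+anti-CD40 raised the same 8 genes by 1.72-fold (Srebf2) to 8.60-fold (Idi1), against 30.4% of 14433 genes tested that rose. The 4 NS libraries served both comparisons, so the stimuli are not independent of each other here. Idi1 had 224, 227, 229 and 209 CPM, with a log2 fold change of 3.10 (SE 0.408, edgeR adjusted p = 0.000185). Lss, at 32.0, 32.8, 18.6 and 18.3 CPM in NS, had 175, 184, 197 and 171 CPM with IL-4+anti-CD40, a log2 fold change of 2.89 (SE 0.210, edgeR adjusted p = 8.23e-06). Both genes lay far above every NS library. Hmgcs1 (2.85), Sqle (2.75), Insig1 (2.61), Cyp51 (2.43), Fdft1 (2.29) and Srebf2 (0.78) completed the list of log2 fold changes, with edgeR adjusted p from 2.59e-05 (Srebf2) to 0.000378 (Cyp51). The ranges did not overlap with NS for any of the 8, which was not counted over all genes. The median was 2.68 over the 8 genes and −0.041 over all genes tested. Against NS libraries 1 and 2 alone the log2 fold changes ran from 0.71 (Srebf2) to 2.51 (Lss), and against libraries 3 and 4 alone from 0.84 (Srebf2) to 4.18 (Idi1).

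**Figure D2:**
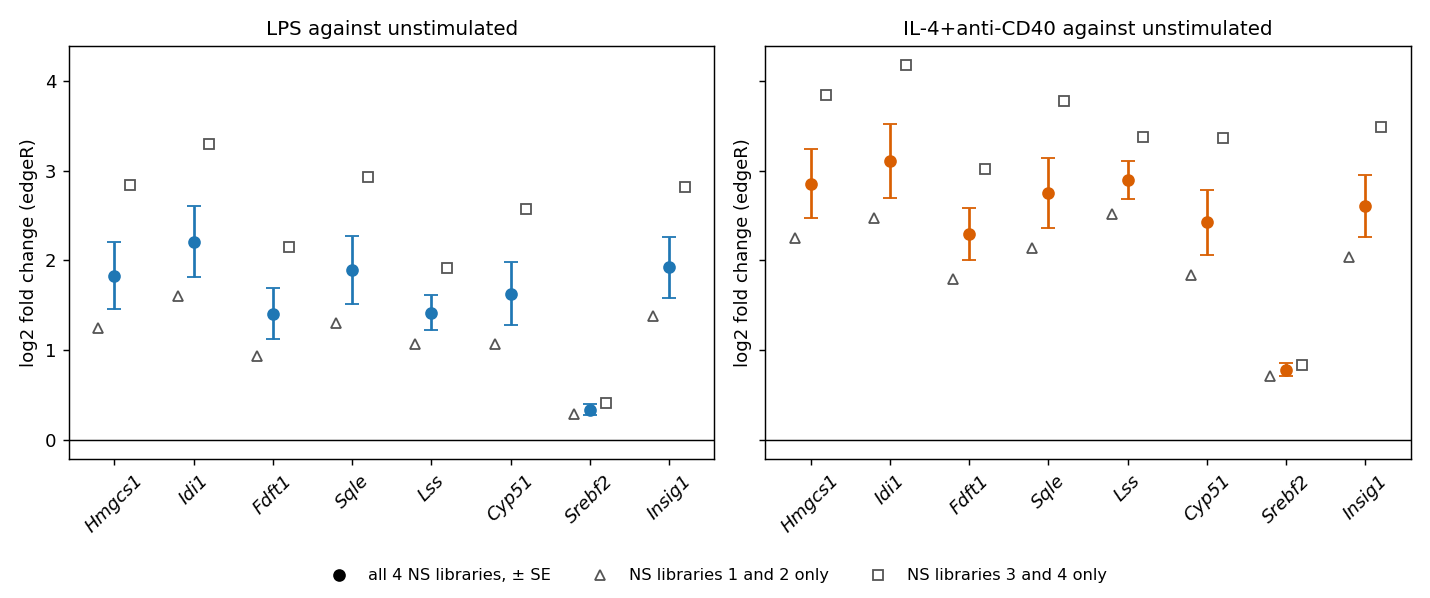
log2 fold change of each gene against NS with LPS (left) and IL-4+anti-CD40 (right). Filled circles use all 4 NS libraries with their SE, triangles NS libraries 1 and 2 only and squares NS libraries 3 and 4 only. All values lie above 0, and for Idi1 with LPS they run from 1.61 to 3.29 with the NS libraries chosen.

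Set directly against each other, IL-4+anti-CD40 gave higher levels than LPS for all 8 genes, against 17.3% of 14078 genes tested that were higher. Lss differed most, at 181.8 ± 11.1 CPM (SD, n = 4) against 68.0 ± 2.44, a 2.66-fold difference (log2 1.41, edgeR adjusted p = 2.68e-09). Hmgcs1 followed, with 592, 618, 653 and 588 CPM against 302 to 319 CPM (log2 0.97, edgeR adjusted p = 1.51e-08). The ranges of the 2 stimuli did not overlap for any of the 8 genes, again counted for these genes only. The differences of the other 6 were 0.84 (Idi1), 0.83 (Fdft1), 0.80 (Sqle), 0.74 (Cyp51), 0.62 (Insig1) and 0.39 (Srebf2), with edgeR adjusted p from 4.33e-08 (Idi1) to 5.89e-05 (Srebf2). The median was 0.81 over the 8 genes and 0.0062 over all genes tested. This comparison did not use the NS libraries.

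In LPS-stimulated cells DSF moved the 8 genes in different directions. Lss fell and Insig1 and Srebf2 rose, while Cyp51, Idi1 and Sqle fell by less and Hmgcs1 and Fdft1 did not pass the test. In all, 2 of 8 rose against 35.1% of 14154 genes tested, and 4 of 8 fell against 36.0%. Both shares lie near those over all genes, so the number of calls does not set these genes apart. Lss had 70.7, 68.1, 64.7 and 68.4 CPM with LPS and 31.7, 31.6, 35.4 and 30.8 CPM with LPS and DSF. The groups did not overlap, and the drop was 2.08-fold (log2 −1.06, SE 0.0561, edgeR adjusted p = 1.2e-14). Insig1, whose product holds back SREBP2, had 243.6, 229.9, 233 and 234 CPM with LPS and 319.9, 347, 342 and 350.1 CPM with LPS and DSF. Every library with DSF lay above every one without, a 1.46-fold rise (log2 0.55, SE 0.0390, edgeR adjusted p = 4.07e-12). Srebf2 had 564, 551, 581 and 608 CPM with LPS and 701, 753, 743 and 764 CPM with DSF, again without overlap, a 1.30-fold rise (log2 0.38, SE 0.0411, edgeR adjusted p = 9.2e-09).

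Cyp51, with 237, 228, 235 and 221 CPM under LPS and 177, 199.5, 183.5 and 197 CPM with DSF, fell by 0.27 on the log2 scale (SE 0.0418, edgeR adjusted p = 3.5e-06). Idi1 fell by 0.24 (SE 0.0434, edgeR adjusted p = 2.4e-05) and Sqle by 0.18 (SE 0.0423, edgeR adjusted p = 0.000669), and for these 3 enzymes the groups did not overlap. Hmgcs1, at the head of the pathway, had 312 ± 8.07 CPM with LPS and 306 ± 20.2 with DSF, a log2 difference of −0.013 with a 95% interval of −0.10 to 0.075 (edgeR adjusted p = 0.801). For Fdft1 the difference was −0.0025 with an interval of −0.11 to 0.11 (edgeR adjusted p = 0.969), and for both genes the groups overlapped. The median was −0.094 over the 8 genes and 0.0019 over all genes tested. With total counts as the scaling, which moved the median of all genes by −0.21, Hmgcs1 and Fdft1 also passed as lower (log2 −0.22 and −0.21), the rises of Insig1 and Srebf2 shrank to 0.34 and 0.17, and Cyp51, Idi1 and Sqle stood at −0.48, −0.45 and −0.38. In 1 fit over all 20 libraries, which takes its spread from the NS libraries too, only Srebf2 and Lss kept their calls. B cell marker RNA was lower with DSF than with LPS alone, as given above, while myeloid marker RNA overlapped, and mitochondrially encoded genes took 1.81% to 1.97% of counts with DSF against 1.69% to 1.79% without. The part of marker levels and of the mitochondrial share in these values was not tested.

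In IL-4+anti-CD40-stimulated cells 6 of 8 genes fell with DSF, against 31.6% of 14275 genes tested, and Insig1 and Srebf2 did not pass the test. Lss had 175, 184, 197 and 171 CPM without DSF and 92.3, 92.1, 83.2 and 88.3 CPM with it. The groups lay far apart, a 2.13-fold drop (log2 −1.09, SE 0.0585, edgeR adjusted p = 6.92e-07). Idi1 had 224, 227, 229 and 209 CPM without DSF and 165, 146, 154 and 149 CPM with it, a 1.51-fold drop (log2 −0.59, SE 0.0557, edgeR adjusted p = 5.3e-06). Cyp51 fell from 389.9, 409, 387 and 354 CPM to 316, 288, 311 and 304 CPM (log2 −0.40, SE 0.0578, edgeR adjusted p = 0.000107). Neither Idi1 nor Cyp51 overlapped between the groups. Sqle fell by 0.33 on the log2 scale (SE 0.0507, edgeR adjusted p = 0.000154), Fdft1 by 0.20 (SE 0.0486, edgeR adjusted p = 0.00356) and Hmgcs1 by 0.20 (SE 0.0534, edgeR adjusted p = 0.00729).

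Insig1 had 357, 358, 371 and 368 CPM with IL-4+anti-CD40 and 385, 384, 398 and 399.5 CPM with DSF, without overlap in these CPM, while the ranges of Srebf2 overlapped. These CPM were scaled over all 20 libraries and the test over the groups compared only, and overlap in the test's scaling was not checked. The log2 difference of Insig1 was 0.048 with a 95% interval of −0.045 to 0.14 (edgeR adjusted p = 0.347), and that of Srebf2 was 0.060 with an interval of −0.057 to 0.18 (edgeR adjusted p = 0.347), and both turned negative with total counts as the scaling, at −0.10 and −0.088. That scaling gave −0.35 for both Hmgcs1 and Fdft1. The median was −0.27 over the 8 genes and −0.015 over all genes tested. In 1 fit over all 20 libraries only Lss kept its call. With DSF the 6 B cell markers summed to 3160 to 3350 CPM against 3900 to 4340 without, and the 6 myeloid markers to 206 to 266 against 153 to 178. Mitochondrially encoded genes took 1.91% to 2.08% of counts with DSF against 1.52% to 1.76% without. The part of marker levels and of the mitochondrial share in these values was not tested.

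**Figure D3:**
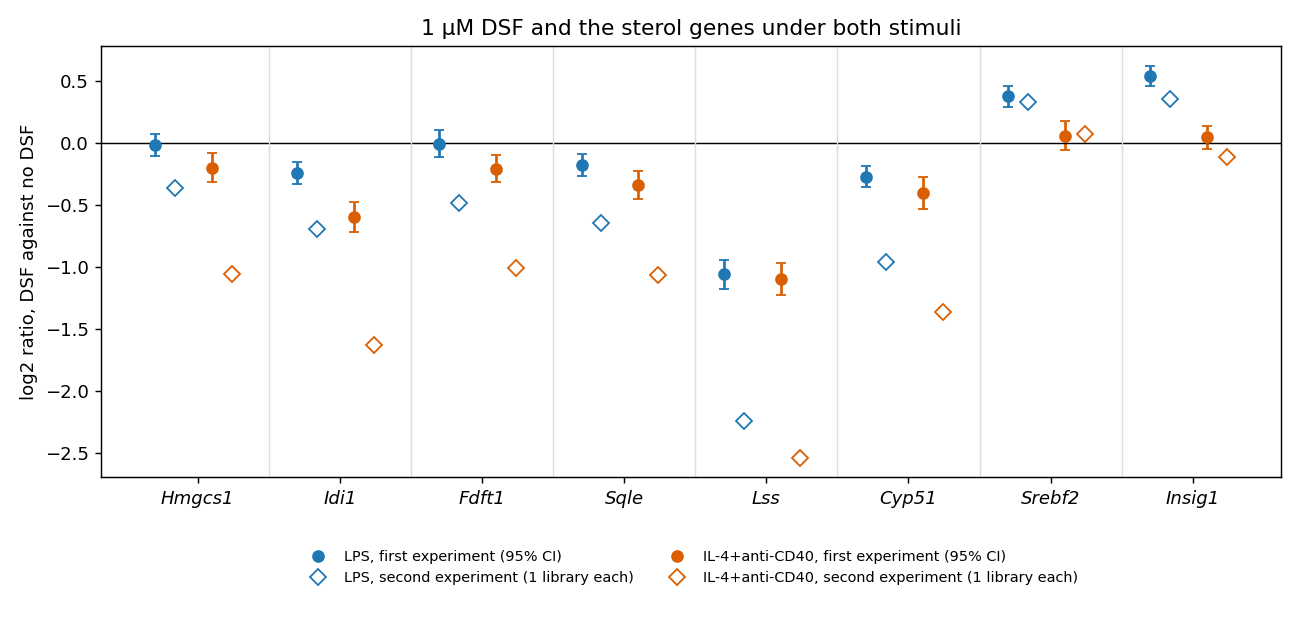
log2 ratio of each gene with 1 μM DSF against the same stimulus without it. Circles are experiment 1 (edgeR estimate with its 95% interval, 4 libraries against 4), open diamonds experiment 2 (1 library against 1), blue LPS and orange IL-4+anti-CD40. Lss lies lowest in all 4 settings, between −1.06 and −2.53, and Insig1 and Srebf2 lie above 0 under LPS, at 0.55 and 0.38 in experiment 1 and 0.36 and 0.33 in experiment 2, values that with total counts as the scaling are 0.34 and 0.17, and 0.055 and 0.026.

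Whether DSF acted differently under the 2 stimuli was tested as the difference between its effects, IL-4+anti-CD40 minus LPS, in the 16 stimulated libraries. It passed for 3 of 8 genes, all in the negative direction, against 7.92% of 15130 genes tested. The difference was −0.49 for Insig1 (SE 0.0565, edgeR adjusted p = 5.94e-06), whose effect was 0.55 under LPS and 0.048 under IL-4+anti-CD40, −0.35 for Idi1 (SE 0.0742, edgeR adjusted p = 0.00309), which fell more with IL-4+anti-CD40, and −0.31 for Srebf2 (SE 0.0682, edgeR adjusted p = 0.00346). For Lss, which fell under both stimuli, the difference was −0.032 with a 95% interval of −0.20 to 0.14 (edgeR adjusted p = 0.842). Its sign turned with total counts as the scaling, to 0.023. The differences for Fdft1 (−0.19), Hmgcs1 (−0.18), Sqle (−0.15) and Cyp51 (−0.13) did not pass, with edgeR adjusted p from 0.103 to 0.285. Without library 1 of the LPS and DSF group the difference for Fdft1 passed, at −0.24 with an adjusted p of 0.0435.

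Set against unstimulated cells, 7 of 8 genes stayed higher in cells given LPS and DSF, against 34.3% of 14663 genes tested that were higher. Insig1 was highest in log2 fold change, at 2.44 (edgeR adjusted p = 0.000204), and Idi1 (1.94), Hmgcs1 (1.79), Sqle (1.69), Fdft1 (1.38), Cyp51 (1.33) and Srebf2 (0.69) followed. Lss was the exception, at 31.7, 31.6, 35.4 and 30.8 CPM with LPS and DSF against 32.0, 32.8, 18.6 and 18.3 CPM in NS. Its groups overlapped, with a log2 fold change of 0.34, a 95% interval of −0.12 to 0.80 and an edgeR adjusted p of 0.164. Against NS libraries 1 and 2 alone it was −0.056 (adjusted p = 0.506), against libraries 3 and 4 alone 0.80 (adjusted p = 5.22e-09), and with total counts as the scaling −0.078, where Srebf2 stood at 0.28. In 1 fit over all 20 libraries Lss passed as higher (0.34, adjusted p = 0.0355), making it 8 of 8. In cells given IL-4+anti-CD40 and DSF all 8 genes stayed above NS, against 33.4% of 14678 genes tested, with log2 fold changes from 0.85 (Srebf2) to 2.66 (Hmgcs1), and Lss at 1.81 (edgeR adjusted p = 6.22e-05). Srebf2 stood at 0.54 there with total counts as the scaling.

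Experiment 2 had 1 library per group, so its values have no replicate check and no test, intervals cover counting error only, and each ratio compares 2 libraries. Here a 2-fold difference was taken as the mark. With LPS 7 of 8 genes were at least 2-fold higher than in the NS library, against 8.62% of 14275 genes, and with IL-4+anti-CD40 again 7 of 8, against 10.7%. Idi1 had 25.6 CPM in NS, 91.9 with LPS and 137.7 under IL-4+anti-CD40, which gave log2 ratios of 1.84 (95% interval 1.70 to 1.98) and 2.42 (2.29 to 2.56). Srebf2 was the gene under 2-fold, at 474 CPM in NS, 682 with LPS and 754.5 under IL-4+anti-CD40 (log2 ratios 0.52 and 0.67). The median log2 ratio over the 8 genes was 1.32 for LPS and 1.87 for IL-4+anti-CD40, and over all genes −0.0095 and −0.016. All 8 genes had higher CPM with IL-4+anti-CD40 than with LPS in this experiment too.

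With DSF in experiment 2, Lss again stood lowest. It had 12.8 CPM with LPS and DSF (216 counts) against 60.7 with LPS alone (1103 counts), a 4.72-fold lower value (log2 ratio −2.24, 95% interval −2.45 to −2.03). With IL-4+anti-CD40 it had 17.5 CPM with DSF (246 counts) against 101.5 without (1860 counts), 5.79-fold lower (log2 ratio −2.53, interval −2.73 to −2.34). Both values with DSF lay below the 26.2 CPM of the NS library. Under LPS 1 of the 8 genes, Lss, was 2-fold lower, against 19.5% of all genes, and the log2 ratios of the other 7 were −0.96 (Cyp51), −0.69 (Idi1), −0.64 (Sqle), −0.48 (Fdft1), −0.36 (Hmgcs1), 0.33 (Srebf2) and 0.36 (Insig1). Scaled by total counts, Cyp51 crossed the mark as well, giving 2 genes, Hmgcs1 and Fdft1 stood at −0.67 and −0.79, and Insig1 and Srebf2 came close to 0, at 0.055 and 0.026. Under IL-4+anti-CD40, 6 of 8 were 2-fold lower against 20.3% of all genes: Lss, Idi1 (−1.62), Cyp51 (−1.36), Sqle (−1.06), Hmgcs1 (−1.05) and Fdft1, which only just crossed the mark (56.1 against 112.5 CPM), while Insig1 (−0.11) and Srebf2 (0.076) were not, and under total-count scaling these stood at −0.36 and −0.17. The median over the 8 genes was −0.56 under LPS and −1.06 under IL-4+anti-CD40, against −0.040 and −0.0083 over all genes. Summed myeloid markers were 60.8 and 55.8 CPM in the libraries with DSF against 15.1 and 15.5 in those without, and summed erythroid markers 68.0 and 57.4 against 26.2 and 24.2, and B cell markers 3290 and 3480 against 4610 and 4270. The mitochondrial share of counts was 2.38% and 2.32% with DSF against 1.74% and 1.61% without. The part of marker levels and of the mitochondrial share in these values was not tested.

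Ibrutinib, at the same dose of 1 μM, went with lower values of all 8 genes under both stimuli, none of them by 2-fold, where 2.47% and 1.69% of all genes were 2-fold lower. With LPS the log2 ratios ran from −0.30 (Srebf2, 554.8 against 682 CPM) to −0.84 (Lss, 33.9 against 60.7 CPM, interval −0.97 to −0.71). With IL-4+anti-CD40 they ran from −0.31 (Idi1, 111 against 137.7 CPM) to −0.50 (Sqle, 151.0 against 214 CPM, interval −0.57 to −0.44). Insig1 was lower with ibrutinib under LPS (124.5 against 190.9 CPM, log2 ratio −0.62) while with DSF its value was 245 CPM (log2 ratio 0.36, and 0.055 with total counts as the scaling). Of all genes, 48.6% under LPS and 49.3% under IL-4+anti-CD40 were below 0. The median over the 8 genes was −0.49 under LPS and −0.45 under IL-4+anti-CD40, against 0.0094 and 0.0043 over all genes. The ibrutinib and DSF libraries were set against the same 2 libraries without inhibitor, and with no replicates the drugs were not tested against each other. Summed B cell markers in the ibrutinib libraries were 6100 CPM (LPS) and 6280 CPM (IL-4+anti-CD40), above the 4610 and 4270 CPM without inhibitor, and their part in these values was not tested.

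**Figure D4:**
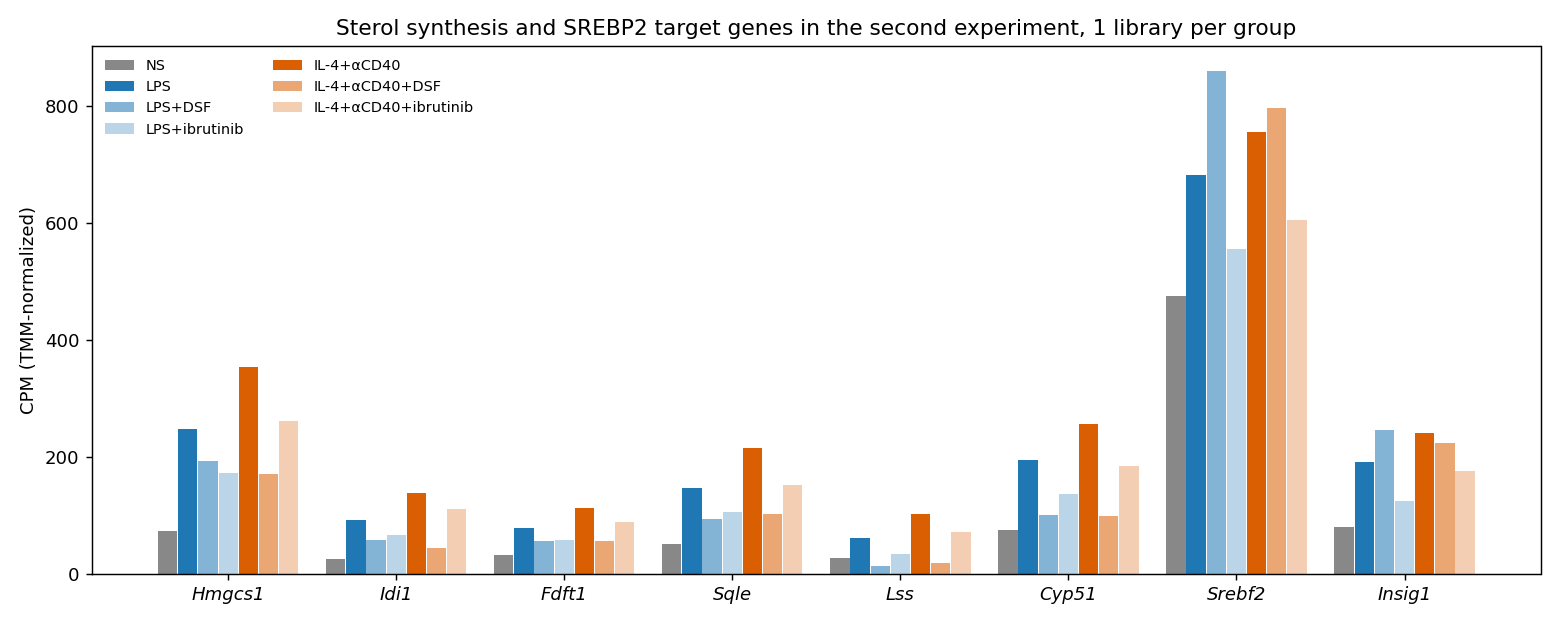
Level of each gene in experiment 2 in CPM (TMM-normalized, linear axis from 0), 1 bar for each of the 7 libraries. Lss falls from 60.7 to 12.8 CPM with LPS and DSF and from 101.5 to 17.5 CPM with IL-4+anti-CD40 and DSF, and with ibrutinib stands at 33.9 and 72.1 CPM.

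The other enzymes of the pathway were described from a list of 16 genes, all of which were tested. With LPS 9 of them rose, 3 fell and 4 did not pass, and with IL-4+anti-CD40 13 rose, 1 fell and 2 did not pass, where 29.6% and 30.4% of all genes tested rose. Scaled by total counts, 7 rose and 6 fell for LPS, and 12 rose and 1 fell for IL-4+anti-CD40. With DSF under LPS 11 of the 16 fell, 4 rose and 1 did not pass, with a median log2 fold change of −0.29, and under IL-4+anti-CD40 12 fell and 4 did not pass, with a median of −0.58, where 36.0% and 31.6% of all genes tested fell. Scaled by total counts, 12 fell and 2 rose under LPS and 15 fell under IL-4+anti-CD40. Hsd17b7, which reduces a keto group on the sterol ring after Cyp51 has acted, fell by 1.54 on the log2 scale under LPS and by 1.39 under IL-4+anti-CD40 (edgeR adjusted p = 3.4e-15 and 8.65e-07). Mvk, mevalonate kinase, fell by 1.11 and 1.23, and Dhcr7, which makes cholesterol from its last precursor, fell by 0.91 and 1.19.

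**Figure D5:**
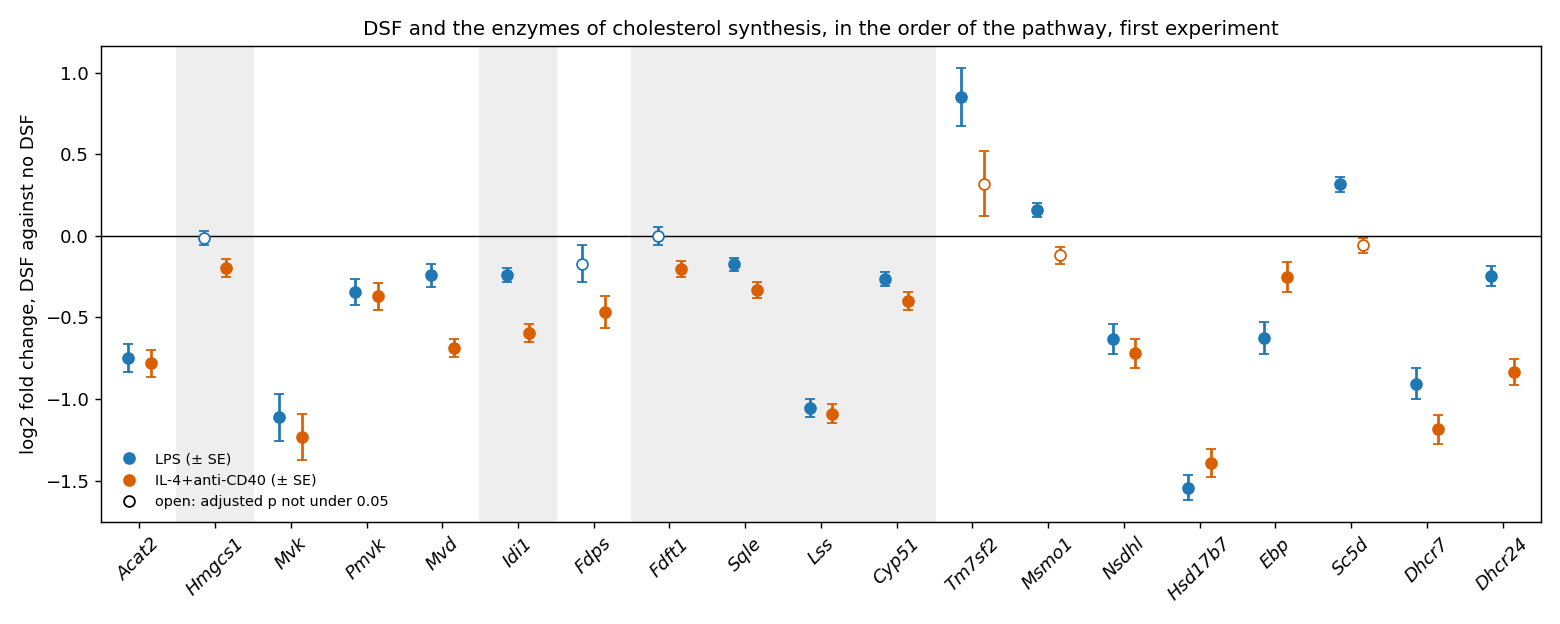
log2 fold change with DSF (± SE, edgeR) for enzymes of cholesterol synthesis in the order of the pathway, LPS in blue and IL-4+anti-CD40 in orange. Shaded columns are 6 of the 8 genes described, and open points did not pass the test. Hsd17b7, Mvk, Lss and Dhcr7 lie lowest, from −0.91 to −1.54.

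Of 12 genes of the SREBP machinery tested, 6 rose, 4 fell and 2 did not pass with DSF under LPS, and 3 rose, 3 fell and 6 did not pass under IL-4+anti-CD40. Of all genes tested, 35.1% rose and 36.0% fell with DSF under LPS, and 30.1% rose and 31.6% fell under IL-4+anti-CD40. The number of calls does not set this list apart. Scap, the escort of SREBPs, fell under both stimuli (log2 −0.35 and −0.60, edgeR adjusted p = 5.77e-07 and 2.65e-06), as did Mbtps2 (−0.40 and −0.52), a protease that cleaves SREBPs, and Erlin2 (−0.75 and −0.68), a protein of sterol-regulated degradation in the endoplasmic reticulum. March6, a ubiquitin ligase that acts on squalene epoxidase, rose (0.72 and 0.60), as did Ufd1 (0.33 and 0.31). Insig2, the paralog of Insig1, fell with LPS (−0.57) and IL-4+anti-CD40 (−0.49) against NS and rose with DSF (0.21 and 0.32), though with total counts as the scaling it gave 0.0028 and 0.17 and did not pass. Srebf1, which encodes SREBP1, rose with DSF under LPS (0.24, edgeR adjusted p = 2.3e-05, and 0.499 with total counts as the scaling) and gave 0.033 under IL-4+anti-CD40 (edgeR adjusted p = 0.639). With total counts as the scaling the split of this list turned to 2 higher and 6 lower under each stimulus.

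Among 15 tested genes of cholesterol uptake and transport, 6 rose and 3 fell with DSF under LPS, and 5 rose and 5 fell under IL-4+anti-CD40, and with total counts as the scaling 4 rose and 4 fell and 4 rose and 5 fell. With TMM scaling, 35.1% of all genes tested rose and 36.0% fell under LPS, and 30.1% and 31.6% under IL-4+anti-CD40. Scarb1 (−0.55 and −0.90) and Tmem97 (−0.69 and −0.52) fell with DSF. Npc1, which exports cholesterol from lysosomes, rose with DSF (1.08 and 1.30), as did the lysosomal lipase gene Lipa (0.57 and 1.19) and the sterol carrier gene Osbp (0.35 and 0.43). Of the esterification genes tested, 3 of 3 rose under LPS and 2 of 4 under IL-4+anti-CD40, and with total counts as the scaling 2 of 3 and 1 of 4, among them Soat1 (0.44 and 0.38 in log2 fold change), which stores cholesterol as esters.

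Of 8 tested genes of LXR, the oxysterol receptor, and of cholesterol efflux, 3 rose and 2 fell with DSF under LPS, and 6 rose and 1 fell under IL-4+anti-CD40, and with total counts as the scaling the split under LPS turned to 2 higher and 4 lower. For this list and those that follow, the TMM-scaled shares over all genes tested were 35.1% higher and 36.0% lower under LPS. Under IL-4+anti-CD40 they were 30.1% higher and 31.6% lower. Abcg1, an exporter of cholesterol, rose under both stimuli (1.59 and 1.58, edgeR adjusted p = 4.56e-19 and 1.18e-05), as did Abca7 (0.41 and 0.77) and Nr1h2 (0.31 and 0.40), which encodes an LXR and did not pass under LPS with total counts as the scaling, while Lpcat3 fell (−0.25 and −0.30). Abca1, the other main exporter, fell with LPS (−0.81) and IL-4+anti-CD40 (−2.87) against NS, gave −0.063 with DSF under LPS (edgeR adjusted p = 0.290) and rose by 1.19 under IL-4+anti-CD40 (edgeR adjusted p = 6.53e-06), a difference of 1.26 that passed the test (edgeR adjusted p = 1.64e-06). In fatty acid synthesis, driven mostly by SREBP1, 7 of 16 tested genes fell with DSF under LPS and 2 rose, and 11 fell and 3 rose under IL-4+anti-CD40, and with total counts as the scaling 8 fell and 2 rose, and 11 fell and 1 rose. Fasn (−0.62 and −0.92), Scd1 (−0.62 and −0.91) and Acly (−0.63 and −0.70) fell, and Elovl5 rose (0.55 and 0.24, the latter not passing with total counts as the scaling). In the non-sterol branch that uses isoprenoids for ubiquinone, dolichol and protein prenylation, 8 of 15 fell under each stimulus, and 4 rose under LPS and 3 under IL-4+anti-CD40, and with total counts as the scaling 11 fell under each, with 2 higher under LPS and 1 under IL-4+anti-CD40. Coq2 (−0.77 and −0.78), Pdss2 (−0.75 and −0.85) and Dolk (−1.14 and −0.68) fell, and Ggps1 (0.36 and 0.36), Rabggtb (0.51 and 0.25) and Rce1 (0.30 and 0.18) rose. Scaled by total counts, Rce1 passed under neither stimulus and Rabggtb under LPS only.

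Over the 20 libraries of experiment 1, genes whose log2 level closely resembled the mean of the 8 were Gars (Pearson r = 0.995, rank 1), Yars (0.992, rank 3), Fdps (0.990, rank 4) and Msmo1 (0.990, rank 5), ranked among 11115 other genes that averaged 50 counts or more. Gars and Yars encode tRNA synthetases, Fdps makes farnesyl diphosphate and Msmo1 removes methyl groups from sterols. The 20 points share 5 conditions, so these values mostly follow the differences between groups and the split of the NS libraries. Among the 8 genes, Lss (r = 0.823 with the mean of the other 7) and Srebf2 (0.845) resembled the rest least, Insig1 stood at 0.936 and the other 5 at 0.990 or above.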

How the data were processed

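Poly(A) RNA of mouse splenic B cells, isolated by negative magnetic selection, was sequenced. Per the labels and the study's methods, the authors trimmed reads with Fastp, dropping those with many N or low-quality bases, aligned them to mm10 with HISAT2 2.0.5 and counted them per gene with featureCounts 1.5.0-p3. They deposited raw gene counts and FPKM, which divides by gene length and library size. The strand setting and the age of the mice that gave the B cells were not given in the sources used here. The members and gene lists were chosen with earlier results of these data known.

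Counts were tested with edgeR 4.0.16 in R 4.3.3 (quasi-likelihood, TMM scaling, filterByExpr, only the groups compared, Benjamini-Hochberg over all genes tested, adjusted p under 0.05). FPKM served only to compare levels between genes. CPM values are TMM-normalized over the libraries of an experiment. Intervals of log2 fold changes are at the 95% level, with edgeR's degrees of freedom. Experiment 2, with 1 library per group, was given as log2 ratios of TMM-normalized CPM (prior count of 2) over genes averaging 10 counts or more. Besides the 8 members, up to 3 genes per list and direction were named, those past the threshold in the same direction under both stimuli with DSF and at least 50 counts, ranked by the smaller of the fold changes, and Scap, Srebf1, Insig2 and Abca1 always. Some genes that the rule names are not reported here. Alternatives were DESeq2 1.42.0, other scalings, no filter, 1 fit over 20 libraries, a replicate block, a minimum fold change, leaving out each library, and, chosen after seeing the data, either pair of unstimulated libraries. The scripts were tested on simulated data.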

Additional observations from a re-analysis of the deposited data

Results flagged for a closer look

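The effect of DSF differed between the stimuli for 3 of the 8 genes by the test of the difference itself (edgeR, 16 libraries of experiment 1). The log2 effect with IL-4+anti-CD40 minus that with LPS was −0.4944 for Insig1, −0.3477 for Idi1 and −0.3145 for Srebf2. The effect itself was 0.55 under LPS and 0.048 under IL-4+anti-CD40 for Insig1, 0.38 and 0.060 for Srebf2, and −0.24 and −0.59 for Idi1. In experiment 2, with 1 library per group and no test, the DSF log2 ratio was lower with IL-4+anti-CD40 than with LPS for the same 3 genes (−0.11 against 0.36 for Insig1, −1.62 against −0.69 for Idi1 and 0.076 against 0.33 for Srebf2). With total counts as the scaling these values were −0.36 against 0.055, −1.87 against −0.99 and −0.17 against 0.026. In 1 fit over all 20 libraries the adjusted p of these differences was 0.494, 0.728 and 0.0822.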

How the results depend on the processing

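Of the members' calls in experiment 1, none changed under DESeq2, DESeq2 size factors or the fit without a filter. For DSF with LPS, Fdft1, which did not pass, turned to 0.0074 under DESeq2 and 0.0078 with its size factors, and leaving out 1 library gave −0.059 to 0.040 for Fdft1 and −0.053 to 0.012 for Hmgcs1. Total counts as the scaling moved the median of all genes by −0.23 (LPS), −0.15 (IL-4+anti-CD40), −0.21 (DSF under LPS) and −0.15 (DSF under IL-4+anti-CD40), and the higher and lower calls over all genes went from 4283 and 4818 to 2903 and 6387, from 4389 and 4633 to 3454 and 5574, from 4966 and 5096 to 3473 and 6680, and from 4301 and 4514 to 3262 and 5832. They went from 2439 and 3145 to 4712 and 2428 for IL-4+anti-CD40 against LPS, from 5031 and 5464 to 3151 and 7453 and from 4901 and 5178 to 3117 and 6760 for LPS and for IL-4+anti-CD40, each with DSF, against NS, and from 1053 and 1199 to 1423 and 826 for the difference of DSF effects. With it Insig1 and Srebf2 turned to −0.10 and −0.088 for DSF with IL-4+anti-CD40, Lss to −0.078 for LPS with DSF against NS and to 0.023 for the difference of DSF effects, and 2 members were 2-fold lower for DSF with LPS in experiment 2. In 1 fit over all 20 libraries 1 member rose and 1 fell for DSF with LPS, 1 fell for DSF with IL-4+anti-CD40, and 0 differed between stimuli (1 at an unadjusted p under 0.05, 3 by DESeq2), where Lss turned to 0.040. The same fit gave 8 members higher for LPS with DSF against NS. With a minimum log2 fold change of 1, 0 rose and 1 fell for DSF with LPS, and 1 fell for DSF with IL-4+anti-CD40. With it 1 was higher for IL-4+anti-CD40 against LPS and 0 differed between stimuli. Without that minimum, 2 rose for DSF with LPS at an unadjusted p under 0.05 and 2 by DESeq2, and 6 differed between stimuli at an unadjusted p under 0.05. Against NS libraries 1 and 2 only, Lss with LPS and DSF was −0.056. Leaving out 1 library left the other counts as given except the difference of DSF effects, 3 to 4, where Lss ran from −0.063 to 0.015. Deviations of 40 same-numbered pairs correlated at −0.091 to 0.33, 5 of them over 0.1, and 6 of 20 libraries correlated best with their own number. The highest values, 0.334 and 0.31, were those of IL-4+anti-CD40 libraries 1 and 4 with their same-numbered libraries with DSF. These correlations cannot decide whether libraries with the same number were paired. With a replicate block the counts stayed (8 for LPS, 2 and 4 for DSF with LPS, 6 for DSF with IL-4+anti-CD40, 3 for the difference) and Lss with LPS and DSF against LPS was −1.06. The order of members by level was kept with CPM per kilobase. That measure uses the same counts and gene lengths as FPKM, so it is no separate check of the order. The lowest count of a member in a library was 216 (Lss, LPS with DSF, experiment 2).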
